A study of Mus musculus with 12 samples.

Results

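Expression was compared between leukemic mouse pre-B cells edited at Ikzf1 and Ikzf3 (KO) and cells edited with a nontargeting guide (WT), all of them with stabilized β-catenin. The comparison rests on the 6 Cre-ERT2 libraries, 3 KO and 3 WT, of the 12 libraries in the series, chosen by their titles, and it covered all 12151 genes of the deposited table. The cells were bone marrow pre-B cells of genotype Ctnnb1Ex3fl/+ from mice 6 to 12 weeks old, expanded with IL-7 and then transformed with a BCR-ABL1 retrovirus, after which IL-7 was withdrawn. Cas9 ribonucleoproteins with sgNTC gave the WT cells and those with sgIkzf1 Ikzf3 the KO cells, and both then received a GFP vector for Cre-ERT2 and were sorted for GFP. Cre-ERT2 is a recombinase that 4-hydroxytamoxifen (4-OHT) switches on, and it removes the loxP-flanked exon 3 of 1 Ctnnb1 copy, which carries the phosphorylation sites that mark β-catenin for degradation. KO and WT libraries thus shared the floxed allele, the oncogene, the vector and 4-OHT, and differed in the guides. The other 6 libraries, 3 KO and 3 WT with a vector for ERT2 alone, entered only where the effect of editing was compared with that in cells without Cre.

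The KO cells were single-cell-derived lines, of which the study describes several, and no library is assigned to a line. A difference between lines and an effect of editing therefore cannot be told apart in these values. The protocol in the labels names day 1 after 4-OHT, in wording for chromatin experiments. Whether the 3 libraries of a group were separate lines, cultures or days is not stated, so a p-value measures the spread between these libraries, which may be technical. The values are normalized log2 values made by the authors, the read depth behind them is unknown, and a difference is KO minus WT on that log2 scale. Medians of the 12 libraries lay between 9.06 and 9.11.

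Ikaros (Ikzf1) and Aiolos (Ikzf3) are zinc finger proteins that bind DNA at sites with the core GGGAA and recruit the NuRD chromatin remodelling complex. They direct B lymphocyte development, restrain signalling through the pre-B cell receptor and limit glucose use in pre-B cells, and Ikaros is often deleted in BCR-ABL1 leukemia. β-Catenin, when it is not degraded, enters the nucleus and joins TCF and LEF factors at Wnt target genes.

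The guides are printed because they define the groups and where the transcripts were edited. The sequences come from the study's oligo list, in lower case from the 5′ end, with the adjoining PAM, the motif Cas9 needs, in capitals as found in the reference transcript.
Nontargeting: gcgaggtattcggctccgcg
Ikzf1: ctggagtgtcactgactgggGGG
Ikzf3: attatgaagccggagcccatGGG
The Ikzf1 guide matched chr11:11707798-11707817 (GRCm38, minus strand), in the coding part of exon 3 of 7 of transcript ENSMUST00000018798, and was found in 5 transcripts, all of Ikzf1. The Ikzf3 guide matched chr11:98490523-98490542 (GRCm38, minus strand), in the coding part of exon 4 of 8 of transcript ENSMUST00000103141, and was found in 1 transcript. The nontargeting guide matched no transcript of the annotation.

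The edited genes kept their mRNA. Ikzf1 read 13.67, 13.70 and 13.66 in the WT libraries and 14.59, 14.56 and 14.61 in the KO libraries. All KO values lay above all WT values, and the rise was 0.90 (SE 0.018, limma adjusted p 4.63e-13). Ikzf3 read 11.93, 11.91 and 11.91 in WT and 11.34, 11.13 and 11.19 in KO libraries, a fall of 0.70 on the log2 scale (limma adjusted p 2.31e-08) with no overlap, so that 61.6% of the WT level remained. Such gene totals carry no information on the reading frame, and protein was not measured in these libraries. The study reports that western blots of its single-cell-derived lines showed deletion of the Ikaros factors. Of the other family members, Ikzf4 (Eos) rose by 0.55 at a low level, with means of 5.82 in WT and 6.37 in KO libraries. Ikzf5 (Pegasus) was not called (0.01) and Ikzf2 (Helios) is not among the genes of the table.

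The label pre-B was checked with markers. All 12 pre-B markers were measured, and their unlogged values summed to between 151300 and 153500 in WT and between 101100 and 102100 in KO libraries. Of these 12, 9 were lower in KO cells and 2, Rag1 and Rag2, were higher, against 28.6% and 30.4% of all genes. Such a sum is weighted to genes of high level, and the members that fell did so unequally. Cd79a fell by 0.76, Cd79b by 0.23 and Pax5 by 0.11 on the log2 scale. The sum is therefore no measure of the share of pre-B cells. Of the T cell markers, Cd3d, Cd3e, Cd3g, Cd4 and Cd8a are not in the table and Lck is. No erythroid marker (4 searched) and no stromal marker (6 searched) is in the table. The 2 myeloid markers present of 6, Lyz2 (called higher) and Itgam (called lower), summed to between 189.4 and 194.4 in WT and between 401.4 and 432.7 in KO libraries. The 1 NK marker present of 4, Klrd1, was called lower, from between 47.21 and 48.77 in WT to between 39.31 and 39.59 in KO libraries. Plasma cell markers (3 of 4 present) summed to between 1875 and 1921 in WT and between 1874 and 1927 in KO libraries. In such bulk samples, fewer cells of a type and less RNA per cell cannot be told apart.

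Editing of Ikzf1 and Ikzf3 went with differences in most of the transcriptome. At an adjusted p under 0.05 limma called 7161 genes, which is 58.9% of those tested, 3688 higher (30.4%) and 3473 lower (28.6%) in KO cells. Groups did not overlap in 7727 genes (63.6%), and 62.7% of genes had an unadjusted p under 0.05. Most differences were small, with a median absolute size of 0.19 among called genes, and 1173 called genes differed by less than 0.1. The balance of directions depends on the scaling, because centering each library on its median moved the share of higher calls from 51.5% to 38.4%. Differences of at least 0.5 were also counted, and 907 called genes (7.46%) reached that size, 525 higher (4.32%) and 382 lower (3.14%). After centering these were 472 and 445, so the balance at this size depends on the scaling as well. By at least 1, 166 genes rose (1.37%) and 88 fell (0.724%).

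**Figure D1:**
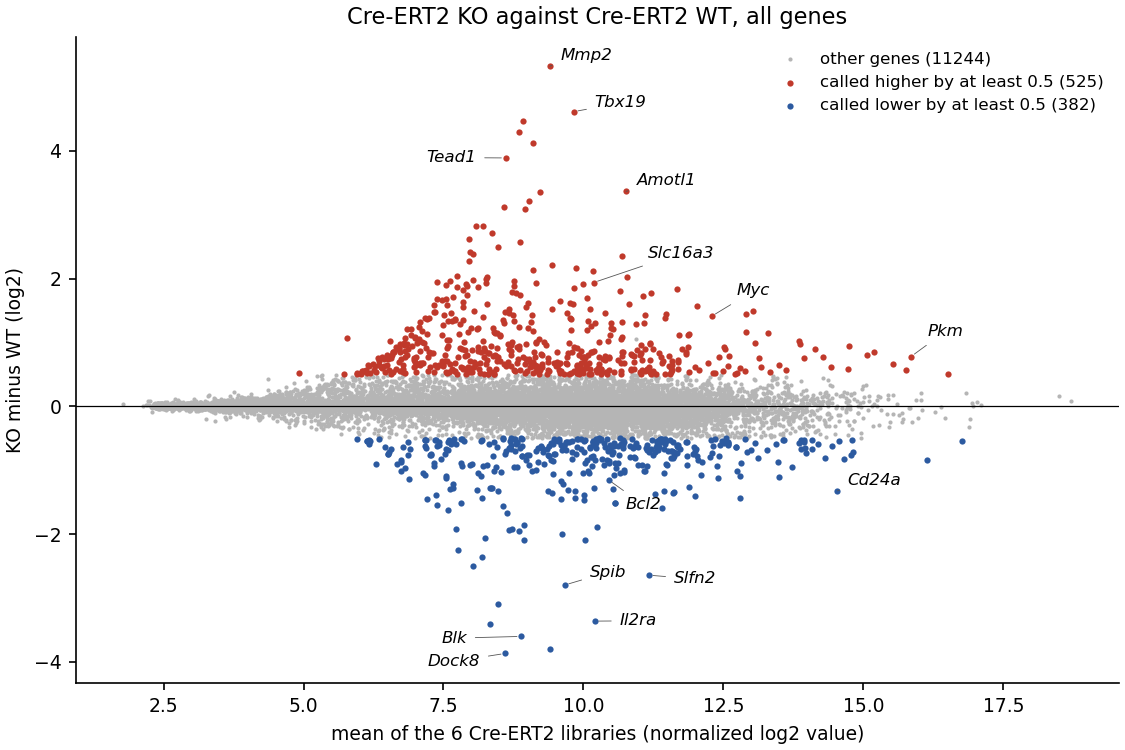
Mean of the 6 Cre-ERT2 libraries (x axis, normalized log2 value) against the difference KO minus WT (y axis, log2) for 12151 genes, with the 525 genes called higher by at least 0.5 in red and the 382 called lower by at least 0.5 in blue. Rises reach 5.33 (Mmp2) and falls -3.87 (Dock8), and differences narrow toward 0 at the low end of the level axis.

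The largest rises included the matrix protease gene Mmp2 and the Hippo pathway genes Tead1 and Amotl1. Mmp2 (ENSMUSG00000031740, chromosome 8), which encodes the secreted matrix protease gelatinase A, read 6.73, 6.73 and 6.75 in WT and 12.07, 12.09 and 12.03 in KO libraries. The difference of 5.33 (SE 0.027, limma adjusted p 2.37e-18) was the largest in the table. Tead1 (ENSMUSG00000055320, chromosome 7), the DNA-binding partner of the Hippo pathway coactivator YAP, read 6.66, 6.67 and 6.67 in WT and 10.61, 10.50 and 10.55 in KO libraries, a rise of 3.89. Amotl1, an angiomotin that binds YAP at cell junctions, read 9.06, 9.03 and 9.16 in WT and 12.49, 12.45 and 12.40 in KO libraries. Of the 15 largest rises, Amotl1 (3.37) alone had a WT mean above 8.

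The other leading rises were Tbx19 (4.61), a T-box factor of the pituitary, Uaca (4.46), Mmrn1 (4.29), which encodes a platelet and endothelial protein, Luzp1 (4.12), an actin-associated protein, Maged1 (3.35), Vldlr (3.21), a lipoprotein receptor, and Ak4 (3.12), a mitochondrial adenylate kinase. They continued with Fetub (3.09), Rai14 (2.82), H19 (2.82), an imprinted long noncoding RNA, Nrxn2 (2.72) and Clic6 (2.62). In WT cells 14 of the 15 had means between 6.64 and 8. Several of them repeated almost the same value in all WT libraries, as H19 did with 6.67, 6.67 and 6.68, so these genes sat at or near the bottom of their range there. Differences that start from such a value are given on the deposited scale and are not read as ratios.

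The largest falls included several genes of lymphocyte migration and signalling. Dock8 (ENSMUSG00000052085, chromosome 19), a guanine nucleotide exchange factor needed for lymphocyte migration and B cell responses, read 10.52, 10.57 and 10.52 in WT and 6.70, 6.65 and 6.64 in KO libraries and fell by 3.87 on the log2 scale (SE 0.029, limma adjusted p 5.92e-17). Blk (ENSMUSG00000014453, chromosome 14), a Src family kinase of the B cell receptor, read 10.73, 10.63 and 10.70 in WT and 7.06, 7.10 and 7.10 in KO libraries, a difference of -3.60. In both genes all KO libraries lay far below all WT libraries.

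Il2ra (ENSMUSG00000026770, chromosome 2), the interleukin-2 receptor α chain CD25 and a surface marker of late pre-B cells, read 11.89, 11.89 and 11.86 in WT and 8.50, 8.57 and 8.49 in KO libraries, a difference of -3.36. Spib (ENSMUSG00000008193, chromosome 7), an ETS factor of B cells, read 11.07, 11.07 and 11.05 in WT and 8.21, 8.31 and 8.29 in KO libraries, a difference of -2.80. Slfn2, a Schlafen protein of quiescent lymphocytes, fell by 2.64, and Slamf7, a SLAM family receptor, by 1.99. Fzd6 (-3.41), a Wnt receptor, Kynu (-3.09), an enzyme of tryptophan breakdown, Acpp (-2.10), Tubb2b (-2.09), a β-tubulin, Gpr171 (-2.06) and Sema4a (-1.96), a semaphorin of immune cells, completed the well identified members of this group. Ly6f (-2.49) and Gm13139 (-2.36) belong to families of similar copies that can share reads, and their values are uncertain.

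**Figure D2:**
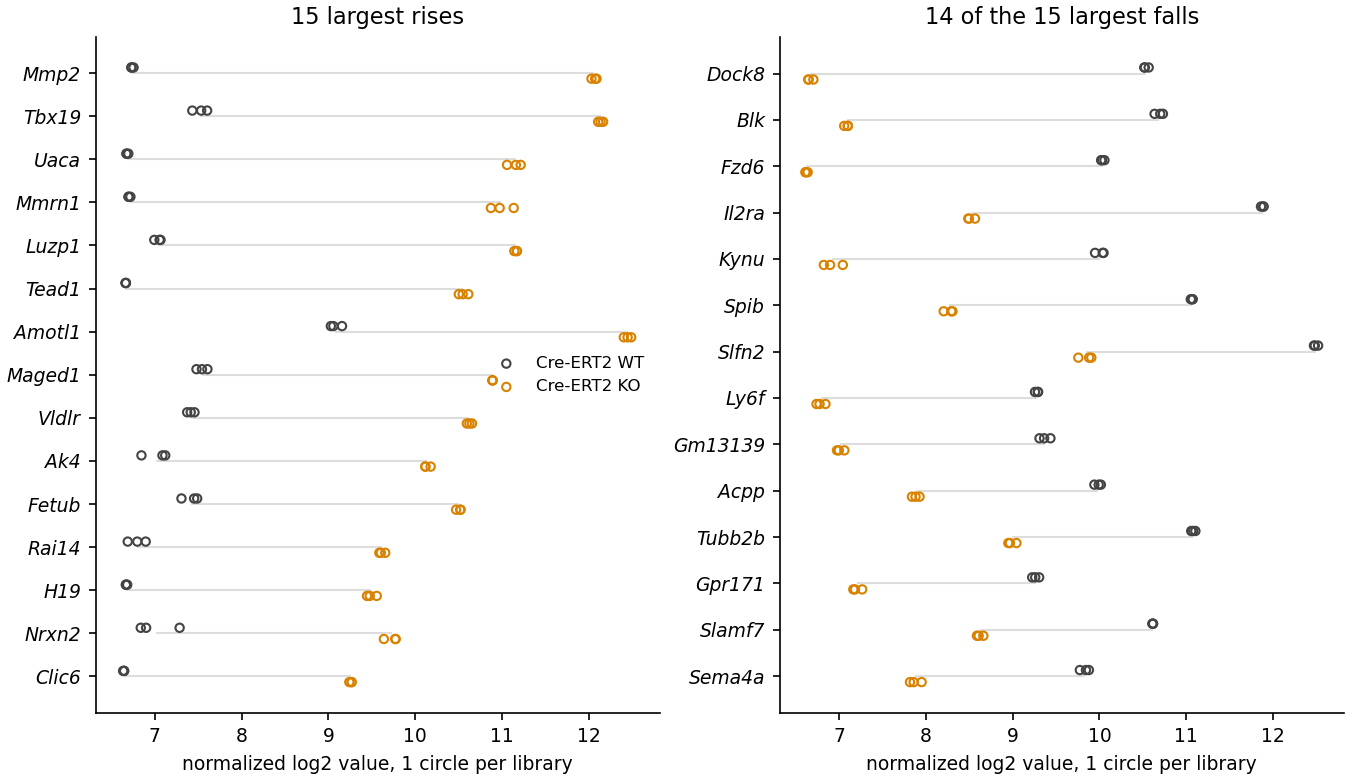
Normalized log2 values (x axis) of the 15 largest rises (left) and 14 of the 15 largest falls (right) in the 6 Cre-ERT2 libraries, with 1 circle per library, WT in grey and KO in orange. The 3 KO circles stand apart from the 3 WT circles by construction, because only genes without overlap were eligible. Replicates lie close together.

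All 30 leading genes were called by limma in the same direction in the ERT2 libraries, 15 of 15 rises and 15 of 15 falls. There limma called 59.0% of all genes, and 898 of the 907 genes with differences of at least 0.5 also kept their direction. The study made its edited lines before either vector was added. Both sets of libraries may therefore carry the same lines, and the ERT2 libraries are no independent check. An exact permutation test of a single gene with 3 against 3 libraries cannot give a 2-sided p below 0.1, and every gene without overlap reached that value.

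Most transcription factors of B cell identity were called lower, and a few rose. Of 28 transcription factors of the B lineage, all in the table, 21 were called lower and 3 higher, against 28.6% and 30.4% of all genes, and their median difference was -0.24, against 0.0016 over all genes. By at least 0.5, 4 fell and 3 rose. Apart from Spib, the falls of that size were Pou2af1 (-0.73), the OCA-B coactivator, Bach2 (-0.72), a repressor of plasma cell genes, and Irf4 (-0.52), which acts in pre-B cell light chain rearrangement. The rises were Irf8 (0.93), a factor that shares targets with Irf4, Tcf4 (0.89), the E protein E2-2, and Pou2f2 (0.53), the octamer factor Oct-2.

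The lineage factors Ebf1, Tcf3, Foxo1, Ets1, Pax5 and Spi1 each differed by less than 0.5. Ebf1 read 14.10, 14.16 and 14.09 in WT and 13.87, 13.85 and 13.94 in KO libraries and fell by 0.23. Tcf3, the gene of E2A, fell by 0.38, Foxo1 by 0.30 and Ets1 by 0.48. Pax5, the guardian of B cell commitment, was called at -0.11 (limma adjusted p 0.0199), but its libraries overlapped, with 13.57, 13.56 and 13.50 in WT and 13.52, 13.41 and 13.38 in KO cells. Spi1, the gene of PU.1, was not called (-0.04, limma adjusted p 0.606).

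The pre-B cell receptor list repeated that balance, with 17 of 24 measured members lower, 5 higher and a median of -0.32. Together 91.67% of the list was called, against 58.9% of all genes. By at least 0.5, 8 fell and 1 rose. Cd79a, a signalling chain of the receptor, read 15.18, 15.16 and 15.12 in WT and 14.36, 14.41 and 14.42 in KO libraries, and KO cells held 59.0% of the WT level. Blnk (-0.72), the adaptor that couples the receptor to calcium signalling, Vav2 (-0.83), an exchange factor, and Syk (-0.52), the receptor's kinase, fell with it. Of the surrogate light chain, Vpreb1 (-0.52) and Vpreb2 (-0.60) fell and Igll1 was not called (-0.06), though Vpreb1 and Vpreb2 are near-identical copies that can share reads. Against this direction, Pik3ap1, the adaptor BCAP that links the receptor to PI3 kinase, rose from 11.29, 11.29 and 11.33 in WT to 12.43, 12.40 and 12.41 in KO libraries, a difference of 1.11.

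Surface antigens were mostly called lower, and recombination genes were divided. Of 26 measured surface antigens 16 were called lower and 4 higher, together 76.92% against 58.9% of all genes, with a median of -0.26. Cd24a, the heat-stable antigen of immature B cells, read 15.19, 15.20 and 15.20 in WT and 13.87, 13.85 and 13.90 in KO libraries, which is 40.0% of the WT level on the unlogged scale. Ly6d (-1.14), a marker of B-committed progenitors, fell, whereas Cd81 (0.53), a tetraspanin, rose. Of 13 V(D)J recombination genes 4 were called higher and 6 lower, together 76.92%, with a median of -0.03. Lig4 (-0.96), the ligase that joins the ends, and Xrcc6 (-0.67), the gene of Ku70, fell by at least 0.5. Rag1 (0.34) and Rag2 (0.44), which encode the recombinase, rose, and Dntt (-0.40), which adds nucleotides at the junctions, fell.

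Most genes of cytokine signalling were called lower in KO cells. Of 33 measured genes 20 were lower, 5 higher and 8 not called, the median was -0.14, and 10 fell while 0 rose by at least 0.5. The share called was 75.76%, against 58.9% of all genes. Il7r, the receptor chain on which normal pre-B cells depend, read 12.85, 12.88 and 12.84 in WT and 11.91, 11.90 and 11.96 in KO libraries, a difference of -0.93 and 52.4% of the WT level. Besides Il2ra, the falls included Il10ra (-1.30) and Csf2rb (-0.72), the shared β chain of the GM-CSF and IL-3 receptors. Socs1 (-1.28) and Cish (-0.79), which STAT5 induces and which damp the signal, also fell.

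Interferon and antigen presentation genes were mostly called lower too. Of the interferon list 93.75% and of the MHC list 80.0% were called, against 58.9% of all genes. In the interferon list 26 of 32 genes were called lower and 4 higher (median -0.19), with Gbp2, a guanylate-binding protein, at -1.51 and Ifih1, the RNA sensor MDA5, at 0.90 in the other direction. Gbp2 has close paralogs, so its value is less certain. Among MHC genes 17 of 25 were lower and 3 higher (median -0.24), with B2m, the shared light chain of class I, at -0.61 and H2-Ab1, a class II chain, at 0.67. H2 genes resemble one another and can share reads.

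Schlafen and SLAM family genes were all called, 6 higher and 9 lower of 15, and 9 of them by at least 0.5. Of all genes 58.9% were called, and 7.46% by at least that size. Beside the falls of Slfn2, Slamf7 and Slamf6 (-0.76), Cd244, which encodes the SLAM receptor 2B4, rose by 1.62 and Cd84 by 0.93. Both directions thus occurred within 1 receptor family.

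Most genes of glucose uptake and glycolysis rose. Of 25 measured genes 21 were called higher and 2 lower, together 92.0% against 58.9% of all genes. By at least 0.5, 17 rose and 0 fell, where 4.32% of all genes rose by that size. The median was 0.66 with Cre-ERT2 and 0.72 in the ERT2 libraries. The rise ran through nearly every step of the pathway, from entry of glucose to export of lactate. The list was written with earlier results of these data known and is described by its counts alone.

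At entry, Slc2a1, the glucose transporter GLUT1, read 10.72, 10.70 and 10.69 in WT and 11.64, 11.68 and 11.75 in KO libraries. It rose by 0.99 (SE 0.040) with an adjusted p from limma of 3.66e-10. Slc2a3, the transporter GLUT3, rose by 0.64. Hexokinase 1 (Hk1), which traps glucose in the cell, read 9.64, 9.51 and 9.51 in WT and 10.79, 10.87 and 10.93 in KO libraries, a rise of 1.31, and Hk2 rose by 0.73. The phosphofructokinase subunits, which catalyze the committed step, rose as well, Pfkm by 1.01, Pfkl by 0.78 and Pfkp by 0.60. Gpi1, the isomerase between the hexokinase and phosphofructokinase steps, rose by 0.44.

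Lower in the pathway the rises were 0.80 for Aldoa (aldolase), 0.77 for Tpi1, 0.51 for Gapdh, 0.75 for Pgam1 and 0.59 for Eno1. Pgk1, phosphoglycerate kinase, read 14.81, 14.74 and 14.73 in WT and 15.60, 15.64 and 15.59 in KO libraries. Pkm, pyruvate kinase, read 15.51, 15.45 and 15.43 in WT and 16.24, 16.24 and 16.24 in KO libraries, which is 1.72-fold higher. No value of one group reached into the other in these 2 genes. Ldha, which turns pyruvate into lactate, rose by 0.66, and Pdk1, which keeps pyruvate out of the mitochondria, by 0.76.

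The lactate exporters differed from each other. Slc16a3 (ENSMUSG00000025161, chromosome 11), the exporter MCT4 of glycolytic cells, read 9.26, 9.22 and 9.17 in WT and 11.10, 11.20 and 11.16 in KO libraries, a rise of 1.94 (limma adjusted p 2.32e-13) and the largest of the list. Slc16a1, the transporter MCT1, overlapped between the groups and was not called (-0.0005, limma adjusted p 0.987), though after quantile normalization it was called higher (0.0885, limma adjusted p 0.0117). The 2 genes called lower were Pfkfb3 (-0.23), which makes the activator of phosphofructokinase, and Txnip (-0.20), which restrains glucose uptake.

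**Figure D3:**
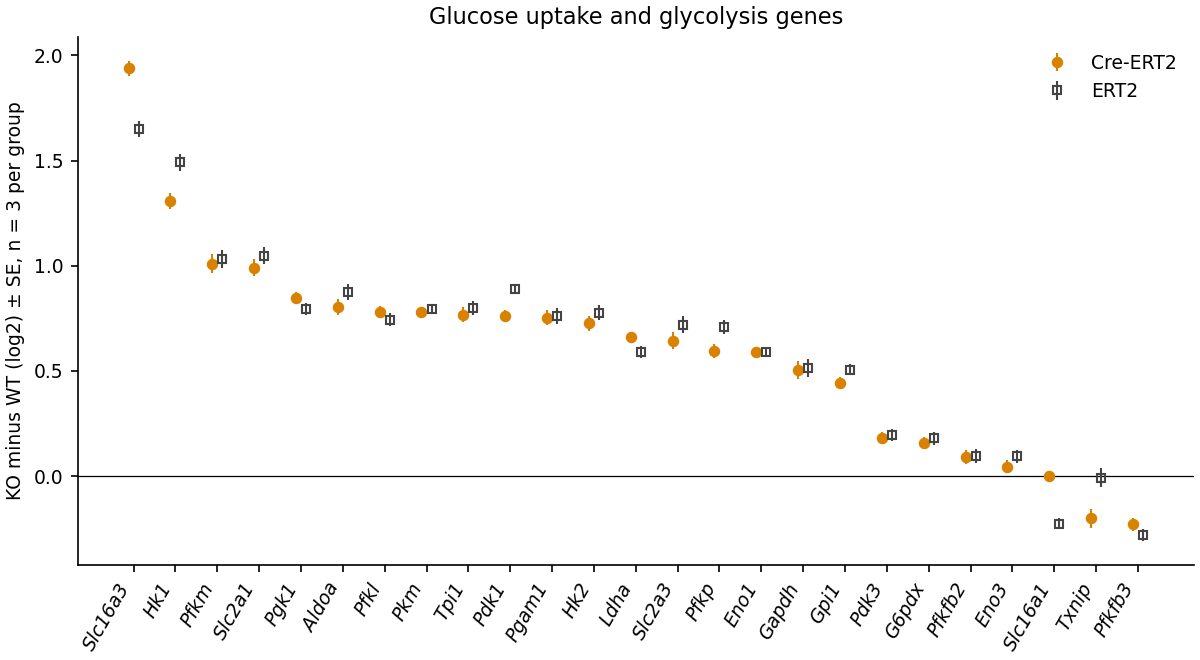
Difference KO minus WT (y axis, log2) of the 25 measured glucose uptake and glycolysis genes, ordered by the Cre-ERT2 difference, with filled circles for Cre-ERT2 libraries, open squares for ERT2 libraries and bars of 1 SE (n = 3 per group). Of the 25 filled circles 17 lie at or above 0.5, and Slc16a3 stands highest in both comparisons.

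Promoter sequences are shown for 3 of these genes because most of the group rose and its promoters hold the motif ACGTG, the core of the hypoxia response element, more often than promoters in general. Sequences are the 250 bases before the start site from RefSeq (GRCm38.p6), all on the plus strand, and capitals mark matches to GGGAA, the Ikaros core, and to ACGTG, on either strand.
Slc16a3: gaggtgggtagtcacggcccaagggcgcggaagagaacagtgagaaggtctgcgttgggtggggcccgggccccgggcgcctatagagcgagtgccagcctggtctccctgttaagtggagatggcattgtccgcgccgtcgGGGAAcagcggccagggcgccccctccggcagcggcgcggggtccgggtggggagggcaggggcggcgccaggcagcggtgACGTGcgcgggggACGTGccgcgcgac
Slc2a1: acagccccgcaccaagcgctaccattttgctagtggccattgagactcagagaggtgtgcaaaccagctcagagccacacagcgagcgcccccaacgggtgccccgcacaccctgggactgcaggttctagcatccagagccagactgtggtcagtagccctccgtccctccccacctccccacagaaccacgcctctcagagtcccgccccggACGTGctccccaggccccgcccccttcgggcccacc
Pgk1: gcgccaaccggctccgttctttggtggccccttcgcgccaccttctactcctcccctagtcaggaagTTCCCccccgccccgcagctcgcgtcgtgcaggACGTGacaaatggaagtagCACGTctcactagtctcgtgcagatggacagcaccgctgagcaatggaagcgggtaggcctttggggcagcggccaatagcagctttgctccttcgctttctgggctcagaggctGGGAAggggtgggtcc
They lie at chr11:120948817-120949066, chr4:119108495-119108744 and chrX:106186850-106187099. Slc16a3 holds 1 match to GGGAA and 2 to ACGTG, Slc2a1 0 and 1, and Pgk1 2 and 2. In windows of 300 bases around the start site, available for 24 of the 25 glycolysis genes, ACGTG occurred in 52.6% of 38 promoters, against 25.8% of the 10927 promoters of all genes tested. Among all genes with differences of at least 0.5 it occurred in 25.5% of promoters of those that rose and 20.2% of those that fell. The E-box CACGTG contains ACGTG and occurred in 13.2% of the glycolysis promoters and in 10.2% of all. Among genes with differences of at least 0.5 it occurred in 7.71% of promoters of those that rose and 8.92% of those that fell. GGGAA occurred in 78.9% of the glycolysis promoters and in 64.5% of all, and in 67.2% of promoters of genes with rises of that size or more and 65.1% of those with such falls. The TCF and LEF motif CTTTGA occurred in 9.68% of promoters of the rising genes and in 12.9% of those of the falling genes, against 11.9% of all. These shares describe letters in fixed windows and were not tested.

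Neighbouring metabolic lists were less uniform. Among 29 sterol and fatty acid synthesis genes 6 rose and 13 fell, together 65.5% against 58.9% of all genes. Scd1 (1.02), a fatty acid desaturase, and Srebf1 (0.84), the regulator of fatty acid synthesis, rose, and Fasn (-0.52), fatty acid synthase, fell. In a list of 15 measured glucocorticoid and energy sensing genes 9 fell and 3 rose, together 80.0%. Among them were Nr3c1 (-0.46), the glucocorticoid receptor, Sgk1 (-0.63) and Per1 (0.87).

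Myc rose in KO cells. It read 11.56, 11.62 and 11.58 in WT and 13.00, 12.99 and 13.01 in KO libraries, without overlap, and the KO level was 2.66-fold that of WT. Of its dimerization network of 12 measured genes, Myc included, 2 were called higher and 4 lower, 2 of the latter by at least 0.5. Together 50.0% of the network was called, which is below the 58.9% of all genes. Mxi1 (0.69), which competes with Myc for Max, was the other rise. Of 40 genes of translation and tRNA charging 25 were higher and 1 lower (median 0.14), 2 of them by at least 0.5, and of 53 ribosome biogenesis genes 28 were higher and 7 lower (median 0.10). Npm1 (0.58), the nucleolar chaperone nucleophosmin, was the 1 gene of the latter list that rose by at least 0.5. Of the translation list 65.0% and of the ribosome biogenesis list 66.0% were called, against 58.9% of all genes.

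Feedback genes of the Wnt pathway were mostly higher. Of 9 measured genes 6 rose, each by at least 0.5, 1 fell and 2 were not called, with a median of 0.78. The share called was 77.78%, against 58.9% of all genes. Znrf3 (1.05), which removes Wnt receptors from the surface, Nkd2 (1.01) and Nkd1 (0.68), which bind Dishevelled, Tnfrsf19 (0.81) and Kremen1 (0.78), a coreceptor of the inhibitor Dickkopf, were among the rises. Axin2, the scaffold of the destruction complex that is a common readout of β-catenin, read 5.38, 5.35 and 5.39 in WT and 5.15, 5.17 and 5.14 in KO libraries and fell by 0.22 on the log2 scale, at a low level. Tcf7, the gene of TCF1, rose from 7.31, 7.34 and 7.33 to 8.25, 8.23 and 8.24, a difference of 0.92. Ctnnb1 itself rose by 0.24. Tle3 (-0.08, limma adjusted p 0.0435), a corepressor, and Prdm1 (-0.05, limma adjusted p 0.0863), the plasma cell factor Blimp-1, lay near the threshold on either side.

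Differences in chromatin repressors were small. Of the 14 NuRD subunits 5 were higher and 5 lower, together 71.4% against 58.9% of all genes. None of them reached 0.5, and Chd4, the ATPase of the complex, rose by 0.32. Of 23 Polycomb and DNA methylation genes 6 rose and 8 fell, together 60.9%. Ezh2, the H3K27 methyltransferase, at -0.55 was the only one of these to reach 0.5 in either direction.

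Of 41 DNA replication genes 12 were called higher and 18 lower, none by 0.5, and 1 of 37 mitosis genes reached that size. Of 24 G1 regulators 7 were called higher and 11 lower, 3 and 5 of them by at least 0.5. Whether these lists differ from one another was not tested. Cdkn2a, which encodes the tumour suppressors p16 and p19Arf, read 8.12, 8.06 and 8.10 in WT and 9.45, 9.50 and 9.34 in KO libraries, a rise of 1.34. Cdk6 (1.16), a G1 kinase, and Ccnd1 (0.85) rose, and the D cyclins Ccnd2 (-0.68) and Ccnd3 (-0.53) and E2f2 (-1.04) fell.

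Among 15 measured BCL2 family genes 2 rose and 2 fell by at least 0.5, together 26.67% against 7.46% of all genes. Bcl2, the survival factor, had a mean of 11.03 ± 0.039 (SD, n = 3) in WT libraries and read 9.84, 9.85 and 9.94 in KO libraries, without overlap and at 45.0% of the WT level, and Mcl1 fell by 0.47. Bmf (-1.02), which opposes them, fell as well. Bnip3 (1.00) and Bnip3l (0.93), which act in removal of mitochondria, rose. Of 21 p53 targets 6 rose and 9 fell, together 71.4% against 58.9% of all genes. Btg2 (-1.31), an antiproliferative gene, lay furthest from 0.

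Adhesion and cytoskeleton genes changed strongly in both directions. Of 33 integrin and focal adhesion genes 16 were higher and 11 lower, together 81.82% against 58.9% of all genes. By at least 0.5, 7 rose and 5 fell. Itgb1 (0.79), the β1 chain, the adaptor Pxn (1.26), Vcl (1.19), which encodes vinculin, and Fermt1 (1.68), a kindlin, rose. Fermt1 started at or near the bottom of its range, with means of 6.54 in WT and 8.22 in KO libraries. Itgb2 (-1.36), the β chain of leukocyte integrins, and Itga6 (-0.81) fell. Of 33 cytoskeleton and junction genes 31 (93.94%) were called, 14 higher and 17 lower. Ctnna1 (1.31), the α-catenin that tethers β-catenin to actin, was among the rises. Of 19 measured matrix genes 8 rose and 6 fell, together 73.7% against 58.9% of all genes. Mmp2 and Mmp16 (1.01), a membrane protease, were among the rises.

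Of 49 measured PI3K and ERK signalling genes 17 were called higher and 15 lower, together 65.3% against 58.9% of all genes. Members furthest from 0 included Rasgrp1 (-1.47), which activates Ras, the ETS factor Etv5 (1.44), Phlda1 (1.46) and Spry4 (0.73), a feedback inhibitor of receptor kinases. Of 25 Notch pathway genes 10 rose and 7 fell, together 68.0%, which is near the share of all genes. Dtx4 (1.74), a ligase of the Deltex family, and Lfng (-0.60), which modifies Notch, were the 2 that reached 0.5. They made up 8.0% of the list, against 7.46% of all genes. Lmo2 (1.42) and Tal1 (0.80), partners in stem cell and erythroid gene control, rose, and Ly6a (-1.39), which encodes Sca-1, fell. Tal1 read 6.44 in each WT library, at or near the bottom of its range, and had a KO mean of 7.24.

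Markers of other blood lineages moved in both directions, and most of them are not in the table. Cd28, a T cell costimulatory receptor, read 6.91, 6.93 and 6.98 in WT and 8.81, 8.83 and 8.92 in KO libraries, a rise of 1.91. Nkg7 (1.90), of cytotoxic granules, Lyz2 (1.23), lysozyme, Car2 (1.49), a carbonic anhydrase, and Cd5 (0.64) also rose, and the T cell kinase Lck fell by 1.93. Of 21 T lineage markers 7 were measured, 3 higher and 4 lower with a median of -0.24, and by at least 0.5 3 rose and 3 fell. Of 23 myeloid markers 8 were measured, 3 higher and 2 lower. Of 17 erythroid and megakaryocyte markers 1 of the 2 measured rose and the other fell, and of 16 NK markers 5 were measured, 2 higher and 1 lower. Whether a few cells of another type contributed was not tested beyond the marker sums given above.

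**Figure D4:**
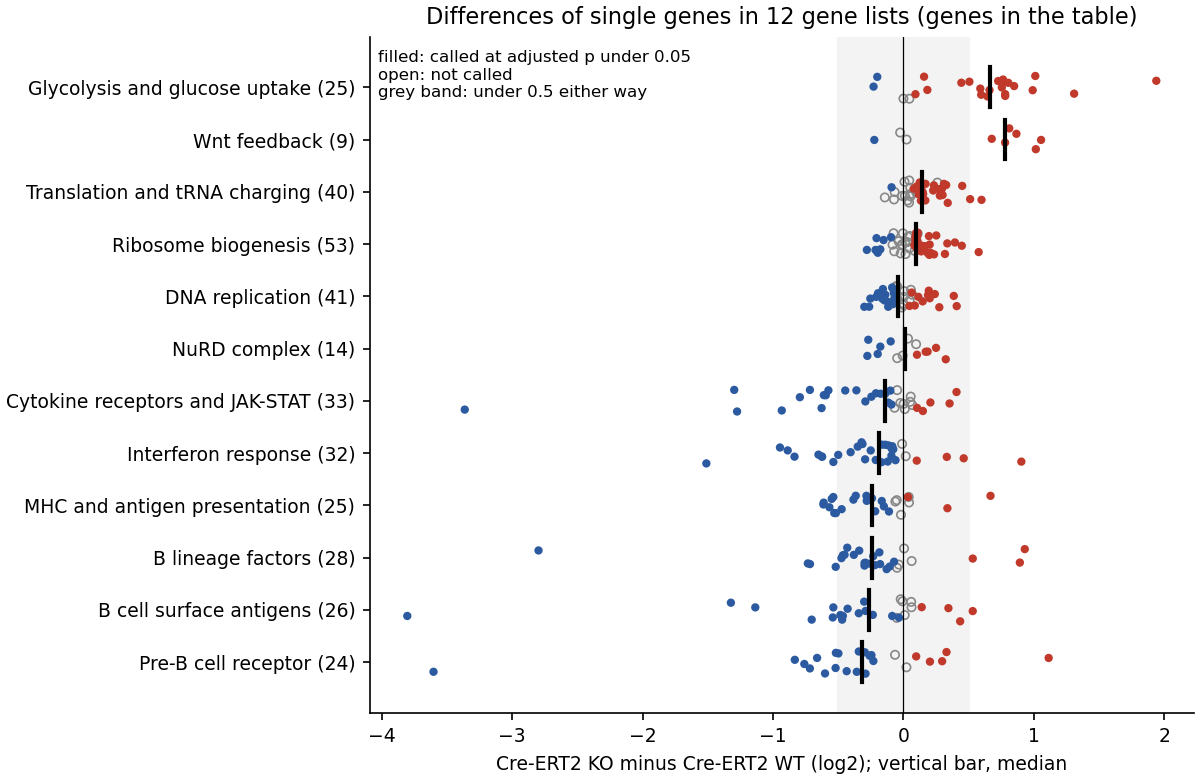
Difference KO minus WT in Cre-ERT2 libraries (x axis, log2) of single genes in 12 gene lists, with filled points for called genes (red higher, blue lower), open points for those not called and a black bar at each median. Medians run from 0.78 for Wnt feedback and 0.66 for glycolysis to -0.32 for the pre-B cell receptor.

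Genes beside the edited sites were examined separately. Within 1 Mb of Ikzf1 lay 6 measured genes, 4 higher and 1 lower, and within 1 Mb of Ikzf3 lay 45, 13 higher and 19 lower, where 30.4% of all genes were called higher and 28.6% lower. The share called was 71.1% around Ikzf3, against 58.9% of all genes, and was not tested. Grb10, an imprinted adaptor of insulin signalling 157.6 kb from Ikzf1, read 10.81, 10.72 and 10.73 in WT and 12.65, 12.55 and 12.56 in KO libraries, a rise of 1.83, and Ddc, 41.2 kb from Ikzf1, rose by 0.50. Grb7, a related adaptor 9.53 kb from Ikzf3, read 7.20, 7.36 and 7.24 in WT and 9.25, 9.28 and 9.33 in KO libraries, a rise of 2.02. Around Ikzf3, Igfbp4 (1.38) and Arhgap23 (1.37) also rose by at least 0.5 and Ccr7 (-1.43), a chemokine receptor, fell. Along the genome, medians of the 20 nuclear chromosomes ran from -0.04 to 0.02. Of 193 windows of 10 Mb with at least 15 genes, 1 had a median of at least 0.2 in absolute size, 0.24 over 20 genes on chromosome 4.

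Most large differences were called in the same direction with and without Cre. Of the 907 genes with large differences in Cre-ERT2 libraries, 898 (99.0%) were called in the same direction in the ERT2 libraries, where limma called 59.0% of all genes. The difference between the effects was tested directly as an interaction and called for 550 genes (4.53%), 329 higher (2.71%) and 221 lower (1.82%) under Cre-ERT2, with a median absolute size of 0.20. It reached 0.5 in 35 genes.

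Among the 907 genes the effect differed in 181 (20.0%), being larger under Cre-ERT2 in 128 and smaller in 53. Genes chosen for a large Cre-ERT2 difference favour the first kind. Of the 891 genes (7.33%) with large differences in ERT2 libraries, 164 differed, 74 with the larger effect under Cre-ERT2 and 90 with the smaller. No general gain or loss of the effect can be read from these counts.

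The Cre-ERT2 difference exceeded the ERT2 difference most, by the naming rule, for Mmp2 (1.08), Dtx4 (1.03), C1qtnf1 (0.90), Grb7 (0.86), Tcrg-C2 (0.67) and Cd244 (0.64). Dtx4 read 7.98, 8.03 and 8.01 in ERT2 WT and 8.70, 8.73 and 8.71 in ERT2 KO libraries, while the Cre-ERT2 libraries read 7.96, 7.99 and 8.04 in WT and 9.75, 9.73 and 9.72 in KO cells. Its WT values thus overlapped between the vectors, and its KO values were higher with Cre. Tcrg-C2, a constant segment of the T cell receptor γ locus, fell in both comparisons and by less with Cre-ERT2 (-0.52 against -1.20), and it has near-identical copies, so its value is uncertain. It lay furthest below the ERT2 difference for Gm5537 (-2.53), Tmem119 (-1.05), Cpm (-0.87), Ndst1 (-0.68), H19 (-0.50) and Lck (-0.48). Of these, Cpm (-1.01 with Cre, -0.14 without) and Lck (-1.93 and -1.45) fell further with Cre-ERT2, whereas Gm5537 and H19 rose less. Gm5537 is annotated as a processed pseudogene, whose reads can come from its parent gene.

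Tmem119 and a few others reversed. It read 8.14, 7.98 and 8.09 in ERT2 WT and 8.86, 8.87 and 8.98 in ERT2 KO libraries, but 9.56, 9.53 and 9.51 in Cre-ERT2 WT and 9.35, 9.36 and 9.26 in Cre-ERT2 KO libraries. In all, 28 genes were called in both comparisons with opposite directions and for the difference, among them Scn2b (0.48 with Cre, -0.36 without), a sodium channel subunit, Ndst1 (-0.35 and 0.33) and Enpep (-0.24 and 0.23), which encodes the pre-B antigen BP-1.

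Of the 9 large Cre-ERT2 differences not called the same way in ERT2 libraries, 4 had a called difference of the effect, Pcp4 (1.07), Sema7a (0.74), Samhd1 (0.59) and Sult1a1 (0.51). Pcp4, a calmodulin regulator, read 6.34, 6.25 and 6.36 in Cre-ERT2 KO libraries and between 5.245 and 5.248 in the other libraries. Ccr2, a chemokine receptor, and Cd28 lay under the level floor of the rule and were picked after their values were seen. Ccr2 rose by 1.94 with Cre and by 0.18 without, and Cd28 by 1.91 and 0.39. For Myc the difference was 1.41 with Cre and 1.10 without. Among Wnt genes, Tcf7 (0.92 and 0.33) and Nkd1 (0.68 and 0.11) had the larger rises with Cre, and Tnfrsf19 and Znrf3 did by less. Nkd2 (1.01 and 0.94) and Kremen1 (0.78 and 0.93) had no called difference of the effect. Axin2 (-0.22 and -0.08) fell further with Cre. The Wnt feedback list had a median of 0.78 with Cre and 0.55 without, and the effect differed in 5 of its 9 genes. Outside these genes, Cdkn2a (1.34 and 0.73) and Lmo2 (1.42 and 0.64) had larger rises with Cre. In the glycolysis list 2 of 25 genes differed in effect, and in the B lineage factor list 5 of 28 did, of which Ets1 (-0.48 with Cre, -0.10 without) changed most.

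**Figure D5:**
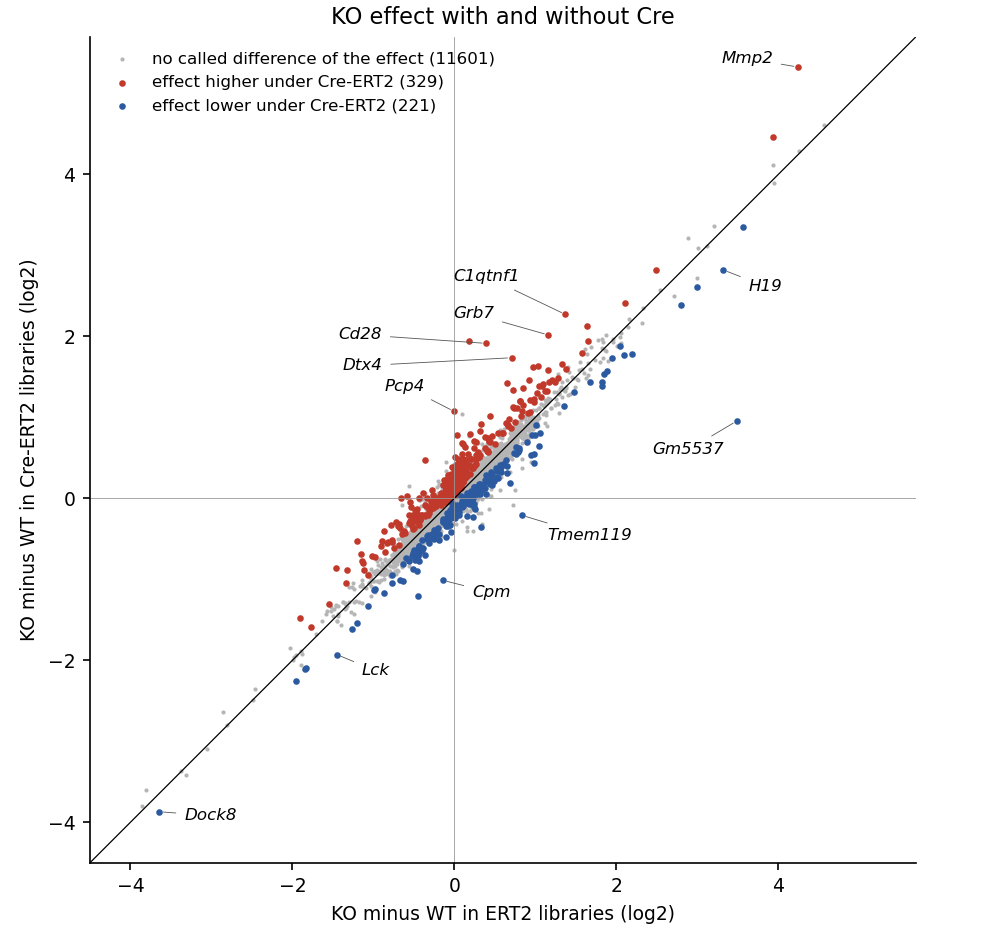
Difference KO minus WT in ERT2 libraries (x axis, log2) against that in Cre-ERT2 libraries (y axis, log2) for 12151 genes, with 329 genes in red whose effect was called higher and 221 in blue whose effect was called lower under Cre-ERT2. Points follow the diagonal of equal effects, with Mmp2, Cd28, Dtx4 and Pcp4 above it and Gm5537 and Tmem119 below.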

How the data were processed

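RNA from 12 libraries in 4 groups of 3 was compared. The deposited table holds log2 values that the authors normalized. Their processing notes name Salmon 1.4.0, STAR 2.7.6 and DESeq2 1.30.1, and which transformation gave the log2 values is not given in the sources used here. Read depth is unknown, so no counting interval could be given, and the precision of a value is that of its 3 replicates.

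Groups came from the sample titles. With limma 3.58.1 (R 4.3.3), 4 group means were estimated from all 12 libraries together (8 residual degrees of freedom, mean-dependent prior), and 3 contrasts were read from it, KO minus WT with Cre-ERT2, KO minus WT with ERT2, and the difference between these. P-values were adjusted by Benjamini and Hochberg over all 12151 genes, with calls made below 0.05. Tables were handled in Python 3.11.15, and the procedure was checked on simulated data. Unlogged values are powers of 2 of the deposited values.

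Named genes were the genes of the study's questions, the 15 largest rises and falls among called genes without overlap whose higher group mean exceeded the table's median of 9.08, up to 6 leading members of each list plus members needed to read it, the 6 largest differences of effect each way, and genes within 1 Mb of the edited genes. The comparison, the 39 gene lists and the tests were chosen with earlier results of these data known, and 2 more lists were chosen after the values were seen. Promoters came from RefSeq (250 bases before to 50 after the start, GRCm38.p6), guides from the study's oligo list, and transcripts from the GRCm38 annotation. Alternatives covered the libraries in the fit, scaling, a filter at a mean of 8, added constants of 1 and 64 before the logarithm, the prior, a threshold of 0.01, the replicate number as a block, and leaving out each library. A few genes that these rules would name are not reported here, and they remain in the counts.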

Additional observations from a re-analysis of the deposited data

Results flagged for a closer look

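The effect of editing, KO minus WT, differed between Cre-ERT2 and ERT2 libraries by limma's test of the difference itself for 550 genes. The values below are the Cre-ERT2 difference minus the ERT2 difference on the log2 scale, for the genes named in the text.

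The effect was higher by at least 0.5 with Cre-ERT2 for Ccr2 (1.76), Cd28 (1.52), Mmp2 (1.08), Pcp4 (1.07), Dtx4 (1.03), C1qtnf1 (0.90), Grb7 (0.86), Scn2b (0.84), Lmo2 (0.78), Sema7a (0.74), Tcrg-C2 (0.67), Cd244 (0.64), Cdkn2a (0.61), Iqgap2 (0.60), Samhd1 (0.59), Tcf7 (0.58), Ptpn14 (0.58), Nkd1 (0.57), Phlda1 (0.54), Uaca (0.52), Arhgap23 (0.52), Sult1a1 (0.51) and Cd5 (0.51). It was higher by less than that for Ccnd2 (0.47), Dntt (0.47), Rasgrp1 (0.43), Syk (0.37), Rai14 (0.33), Myc (0.31), Csf2rb (0.30), Cd84 (0.30), Slc16a3 (0.29), Tnfrsf19 (0.27), Irf4 (0.25), Lyz2 (0.24), Btg2 (0.24), Slc16a1 (0.23), Vcl (0.21), Car2 (0.20), Etv5 (0.19), Pxn (0.19) and Znrf3 (0.14).

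The effect was lower with Cre-ERT2 for Ikzf1 (-0.10), Pou2af1 (-0.13), Ly6d (-0.14), Axin2 (-0.15), Ctnna1 (-0.16), Itga6 (-0.18), Foxo1 (-0.18), Ebf1 (-0.19), Egln3 (-0.19), Vegfa (-0.20), Maged1 (-0.22), Dock8 (-0.22), Cd24a (-0.25), Acpp (-0.26), Tubb2b (-0.26), Ero1l (-0.31), Fasn (-0.32), Ets1 (-0.37), Clic6 (-0.38), Igfbp4 (-0.44), Enpep (-0.47), Lck (-0.48), H19 (-0.50), Ndst1 (-0.68), Cpm (-0.87), Tmem119 (-1.05) and Gm5537 (-2.53). A positive value means a larger rise, a smaller fall or a change of direction, and Syk and Ccnd2, which fell in both comparisons, fell less with Cre-ERT2.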

How the results depend on the processing

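All 9 counts of called genes stayed within 1.5 times their value in 141 of 150 recomputations. With only genes of mean at least 8, 2415 genes were called higher, and the effect differed in 337 genes, 180 of them higher, where fewer genes were tested. At an adjusted p under 0.01 the effect differed in 240 genes, 165 higher and 75 lower, a stricter threshold by construction. Leaving out 1 library at a time gave 6690 to 6845 called genes (3460 to 3574 higher, 3211 to 3271 lower) and 893 to 924 differences of at least 0.5 (519 to 532 higher, 373 to 393 lower). The effect then differed in 383 to 595 genes (237 to 341 higher, 132 to 254 lower), with 140 lower without Cre-ERT2 WT replicate 1, 132 without ERT2 KO replicate 3 and 135 without ERT2 WT replicate 1, and the cause was not tested.

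Centering each library on its median shifted the median difference to -0.03 and gave 2983 higher and 4789 lower calls, against 3688 and 3473, and quantile normalization gave 3411 and 3986. Of 2611 recomputed values of named genes, 2583 kept direction and call. Those that turned direction belonged to Ikzf5 (-0.019 centered, -0.0001 after quantile normalization, -0.0087 to 0.0475 without single libraries, with -0.0013 without Cre-ERT2 WT replicate 3) and Slc16a1 (0.0885 after quantile normalization, -0.0157 to 0.0089 without single libraries), neither called in the report, and Slc16a1 became called after quantile normalization (adjusted p 0.0117). List medians moved by more than the replicate spread in 77 of 530 recomputations, and those of 12 of 41 lists changed sign under at least 1 alternative. The medians drawn for the NuRD complex list and computed for the mitosis, Notch, Polycomb, integrin, PI3K and ERK, BCL2, p53, NK, stem cell, TCF and sex chromosome lists are therefore given no direction.

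Deviations from the group means were correlated between Cre-ERT2 KO and Cre-ERT2 WT libraries across 7729 genes, which are not independent. For equal replicate numbers r was 0.31, -0.05 and -0.07, and for unequal numbers it ran from -0.35 to 0.36. Deviations cancel within each group of 3, so this check cannot decide whether the numbers pair the samples. With the replicate number as a block 7108 genes were called (3666 higher, 3442 lower), 907 of them by at least 0.5, and the effect differed in 424 genes (262 higher, 162 lower). The unknown depth and unknown transformation limit what can be said of genes near the bottom of the range.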

Other observations

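Genes that respond to low oxygen outside glycolysis were gathered after the values had been seen, so their counts are a description. Of 26 measured, 25 rose and 0 fell in the KO cells with Cre-ERT2, against 30.4% and 28.6% of all genes. By at least 0.5, 16 rose (61.54%), against 4.32% of all genes. The median difference was 0.68 with Cre-ERT2 and 0.69 in the ERT2 libraries. Beside Ak4 and Vldlr, Ndrg1 (2.12), a stress-induced gene, Stc2 (1.68), a secreted stanniocalcin, Ero1l (1.57), an oxidase of the endoplasmic reticulum, and the collagen prolyl hydroxylase P4ha2 (1.07) rose. Vegfa (0.16), a common readout of hypoxia-inducible factors, rose less, and Hif1a, the oxygen-regulated subunit itself, rose by 0.14. Egln3 (0.20), another such readout, read 4.98 in each Cre-ERT2 WT library, at or near the bottom of its range. Differences narrow at such levels, so its size is not compared with that of genes at higher levels.

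A list of Hippo pathway genes, chosen in the same way, had 17 measured members, 9 higher and 5 lower, with a median of 0.14. Together 82.35% of them were called, against 58.9% of all genes. Tead1 and Amotl1 rose by over 3 and Ptpn14 (1.02), a phosphatase that binds YAP, by less. No other member rose by 0.5, and 1 fell by at least that size.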
